A study of Mus musculus with 2 samples.

Results

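The mitochondrial genome carries the genes whose symbols begin with mt-, and all 37 of them were taken, out of 55536 named genes in the tables: 13 that encode proteins, 2 that encode ribosomal RNAs and 22 that encode transfer RNAs. They were measured by sequencing the total RNA of a calf muscle, the gastrocnemius, in 2 libraries of a single group. Both came from female B6CASTF1/J mice, the first-generation cross of the B6 and CAST strains, aged 2 months, with no treatment named. Library preparation started from 300 ng of RNA, to which ERCC spike-in RNAs had been added, and the name of the spike-in profile refers to stranded libraries reduced in ribosomal RNA. The libraries are biological replicates 1 and 2, called animal 1 and animal 2 here, but the labels give both the same donor record. If they are not separate mice, the SDs below measure the spread within 1 mouse. With 1 group of 2 libraries no test between conditions was possible, and every value is a description with its spread.

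Mitochondria keep a small circular genome of their own, inherited through the mother, and make a few core subunits of the respiratory chain from it. Complexes I, III and IV pass electrons and pump protons, and complex V, the ATP synthase, uses the proton gradient. Both strands are transcribed as long RNAs that are cut apart, largely at the tRNAs that stand between the other genes, and the ribosomal, messenger and transfer RNAs are then matured and broken down separately. Skeletal muscle burns fuel in its mitochondria during sustained work, and slow fibres hold more mitochondria than most fast fibres do. Beyond the strain name B6CASTF1/J, the labels do not say which strain was the mother.

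The genes were packed closely in the GENCODE M21 annotation of mm10 (GRCm38), which the deposited tables use. Of the 14 boundaries between consecutive rRNA and coding genes, 10 held at least 1 tRNA gene and 4 held none: mt-Atp8 to mt-Atp6, mt-Atp6 to mt-Co3, mt-Nd4l to mt-Nd4 and mt-Nd5 to mt-Nd6. Among the 36 pairs of neighbouring genes, 9 overlapped. The widest overlap, 43 bases, joined mt-Atp8 and mt-Atp6 at chrM:7927-7969, and the genes mt-Nd4l and mt-Nd4 shared 7 bases at chrM:10167-10173. These stretches are shown, plus strand, since both genes of each pair lie on that strand. Capitals mark the bases that belong to both genes.
mt-Atp8 to mt-Atp6, chrM:7912-7984: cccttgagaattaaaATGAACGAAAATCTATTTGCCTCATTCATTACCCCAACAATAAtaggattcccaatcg
mt-Nd4l to mt-Nd4, chrM:10152-10188: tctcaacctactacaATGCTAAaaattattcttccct

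The coding genes used 4 start codons besides ATG between them: GTG in mt-Nd1, ATA in mt-Nd2, ATT in mt-Nd3 and ATC in mt-Nd5. In 10 coding genes the annotated length was a whole number of codons. The other 3 ended in a lone T after the last whole codon, and in mitochondria such stop codons are completed by the poly(A) tail. The last bases of these 3 genes are shown, plus strand, because the stop codon is not in the DNA, and the capital marks the base left over.
mt-Co3 end, chrM:9361-9390: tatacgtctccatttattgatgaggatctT
mt-Nd4 end, chrM:11515-11544: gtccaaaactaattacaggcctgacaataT
mt-Cytb end, chrM:15259-15288: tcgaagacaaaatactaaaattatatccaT
The strands differed in base composition. In the 12 coding genes of the plus strand, G made up between 5.9% and 16.1% of the bases and C between 22.1% and 30.0%. In mt-Nd6, which lies alone on the minus strand, G made up 28.1% and C 6.0%.

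A nuclear copy of part of this genome complicates the measurement. Segments of mitochondrial DNA have entered the nuclear chromosomes in many animals, and the mm10 genome holds a long, nearly perfect one on chromosome 1. Aligning the 37 genes to all annotated transcripts found 7 pseudogenes there, all on the minus strand of a 4663-base stretch at chr1:24611535-24616197. They copy mt-Co1 (its last part), mt-Co2, mt-Atp6, mt-Co3, mt-Nd3, mt-Nd4l and mt-Nd4 (its first part). In 5 of the 7 the alignment held no mismatch. The alignment of Gm29216, the mt-Co1 copy, left out its first 9 bases and held 1 mismatch, A1066T. Set base against base over its whole annotated length, Gm29216 differed at 6 of 492 bases, and all 6 lay within its first 13 bases. Counted from the first base of mt-Co1, these were T1056A, C1057T, A1059G, A1060G, C1062A and A1066T, with the mitochondrial base first. All but A1066T lie in the 9 unaligned bases, and whether those bases were copied from mt-Co1 was not tested. Gm28438, the mt-Nd3 copy, differed by T3C alone. The start of each copy is shown beside the mitochondrial bases at the same positions, with the differing bases in capitals. These are the only letters that separate the pairs. The mitochondrial sequences are plus strand and those of the copies minus strand.
mt-Co1, chrM:6381-6421: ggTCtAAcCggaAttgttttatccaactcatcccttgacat
Gm29216, chr1:24616157-24616197: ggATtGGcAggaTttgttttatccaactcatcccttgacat
mt-Nd3, chrM:9459-9499: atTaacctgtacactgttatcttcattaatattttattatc
Gm28438, chr1:24613079-24613119: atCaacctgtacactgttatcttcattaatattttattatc
Gm28661 matched the first 681 of the 684 bases of mt-Co2 without a difference. The capitals in the end of mt-Co2, plus strand, are the bases that lie beyond the annotated copy, and they are all that the annotation leaves to mt-Co2 alone.
mt-Co2 end, chrM:7667-7696: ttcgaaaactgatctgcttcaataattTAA
Another 4 copies, 3 on chromosome 2 and 1 on chromosome 13, were 95.2% to 97.6% identical to their genes and took at most 246 reads in the gene tables.

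The libraries held 45231388 expected counts in animal 1 and 47956841 in animal 2, where an expected count is the number of reads that the quantification assigned to a gene, shared out where a read matches several. The spike-ins took 0.479% and 0.387% of them. All 6 muscle fibre markers were above 1 TPM in both animals, Acta1 the highest at 16629 and 16341 TPM. Of the 55536 named genes, 11889 in animal 1 and 11425 in animal 2 were at 1 TPM or more. Levels are in TPM, the unit that gives each transcript's share of all transcripts after division by each gene's usable length. The gene tables are the main source, and a second set of transcript tables was quantified separately from the reads of the same libraries. In bulk tissue, fewer cells of a type and less RNA per cell cannot be told apart.

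The rRNA genes stood highest in both animals, although the name of the spike-in profile points to a reduction of ribosomal RNA. mt-Rnr1 (chrM:70-1024), which makes the RNA of the small mitochondrial ribosomal subunit, was at 49196 and 56134 TPM (mean 52665 ± 4906, SD, n = 2). mt-Rnr2 (chrM:1094-2675), for the large subunit, was at 73778 and 79469 TPM (76623 ± 4025, SD, n = 2). Its level exceeded that of mt-Rnr1 1.50-fold in animal 1 and 1.42-fold in animal 2, and by 1.66-fold and 1.56-fold in the second tables. The ribosome holds both RNAs in equal number. Together they made up 12.4% and 13.6% of the TPM of named genes. How much of either RNA the rRNA reduction removed was not tested.

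All 22 tRNA genes, 14 on the plus and 8 on the minus strand, were at 0 reads in both animals and in both sets of tables. tRNAs carry amino acids to the ribosome, and these genes spanned 59 to 75 bases. The shortest and the longest, mt-Ts2 and mt-Tl1, for a serine and a leucine tRNA, show how little sequence each offers to a read; both are plus strand, and the capital marks a base shared with a neighbouring gene.
mt-Ts2, chrM:11613-11671: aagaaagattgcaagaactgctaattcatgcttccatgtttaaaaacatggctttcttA
mt-Tl1, chrM:2676-2750: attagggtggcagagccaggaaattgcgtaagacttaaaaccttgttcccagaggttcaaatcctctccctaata
The zeros were not particular to mitochondrial tRNAs. In the gene tables every one of the 2398 named genes shorter than 100 bases had an effective length of 0 and no reads, so these tables give no level for them. In the second tables the effective lengths of the 22 tRNA genes were 22.1 to 25.7 bases in animal 1 and 22.2 to 25.9 in animal 2, yet 0 of the 2451 transcripts below 100 bases had reads. None of these values bears on the abundance of the tRNAs.

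Among the coding genes the level first depended on where reads were placed between the gene and its copy. For mt-Co2 (chrM:7013-7696), the copper-binding subunit of complex IV that receives electrons from cytochrome c, the gene tables gave 2947 and 2495 reads and its copy Gm28661 372129 and 432497. The copy thus took 99.2% and 99.4% of the summed reads, and 94.4% and 94.8% in the second tables. For mt-Atp6 (chrM:7927-8607), part of the proton channel of complex V, the copy Gm10925 took 81.5% and 71.7% in the gene tables but 3.03% and 0.0421% in the second tables. These reads changed sides between the tables while the sequences of gene and copy were identical over the 678 bases of the copy.

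For mt-Co3 (chrM:8607-9390), a core subunit of complex IV, Gm28437 took 88.8% and 82.3% of the reads, and 81.9% and 77.5% in the second tables. For mt-Co1 (chrM:5328-6872), the catalytic subunit of complex IV, only the last part is copied, and Gm29216 took 12.5% and 11.1%, or 2.24% and 1.94% in the second tables. For mt-Nd4l, a small membrane subunit of complex I, Gm10222 took 18.0% in animal 1 and 1.47% in animal 2. The copies of mt-Nd3 and mt-Nd4 took at most 0.155% in the gene tables. Copies that lie side by side in 1 stretch of chromosome 1 were therefore given levels from 0 to 18561 TPM.

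The uncertainty that the authors deposited shows the same split. The posterior SD, the spread of a gene's reads over the quantification's own resampling, was 3875.92 reads for mt-Co2 in animal 1 and 4532.46 in animal 2, or 131% and 182% of the gene's own reads. It was 17.5% and 14.3% for mt-Co3, 7.37% and 3.57% for mt-Atp6, and 3.54% and 2.13% for mt-Nd4l. In 7 of the 13 coding genes it stayed under 15 reads in both animals. These 7 were the 6 coding genes with no annotated copy on chromosome 1, and mt-Nd4, of which the first part is copied. Among the 6 is mt-Atp8, whose last 43 bases are also the first of mt-Atp6 and so of Gm10925. For mt-Co1, of which only the last part is copied, the posterior SD was 513.52 and 559.16 reads. The posterior SD does not cover the split that both gene tables share: that of mt-Atp6 was 6346.87 reads in animal 1, while the second table placed 264072 reads on the gene in place of 86097.

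**Figure D1:**
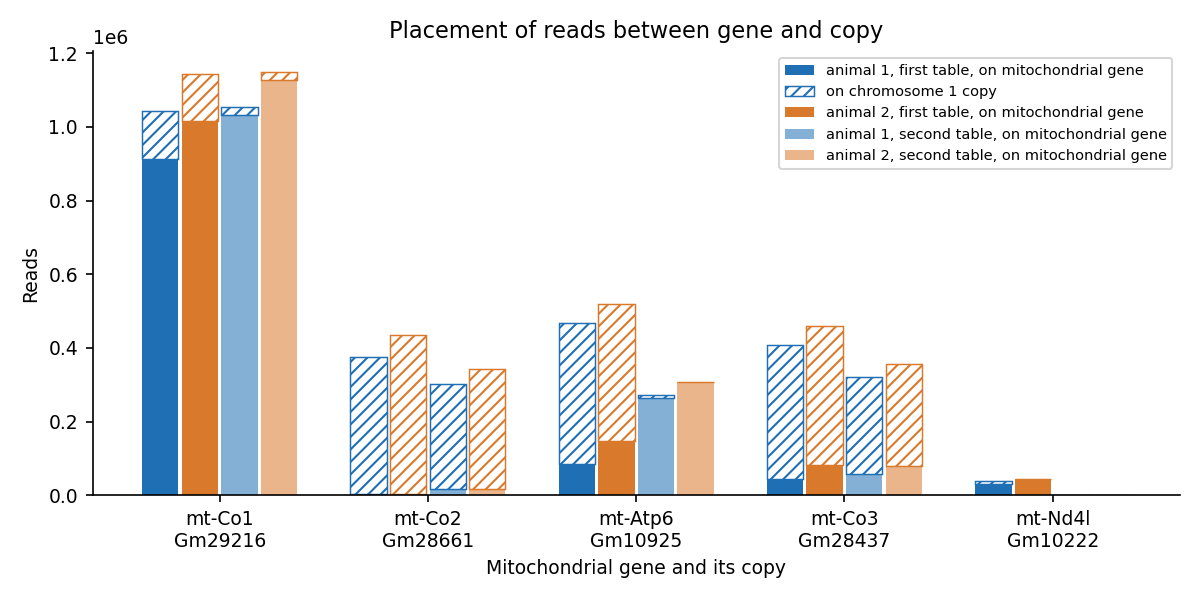
Reads placed on 5 mitochondrial genes (solid) and on their chromosome 1 copies (hatched), for each animal in the gene tables (first table) and in the second tables. The copy took nearly all mt-Co2 reads in both tables, while mt-Atp6 reads lay mostly on the copy in the first table and mostly on the gene in the second.

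A combined level was therefore computed for the 7 genes with an annotated chromosome 1 copy. The copy's reads were added and the sum was divided by the usable length of the mitochondrial gene. It takes all of these reads as mitochondrial, which the sequences cannot show. The combined level of mt-Atp6 was 21301 and 22304 TPM, against 3931 and 6318 TPM for the gene alone. For mt-Co2 it was 17035 and 18572 TPM, against 133.9 and 106.5. With the copies added, mt-Co2 moved from the last place among the 13 coding genes to the third.

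On the combined scale the 3 complex IV genes and mt-Atp6 formed the top of the order. mt-Atp6 led at 21803 ± 710 TPM (SD, n = 2), followed by mt-Co1 at 19435 ± 413, mt-Co2 at 17804 ± 1087 and mt-Co3 at 16280 ± 706. None of these 4 ranges over the 2 animals overlapped its neighbour in the order, but the steps were small: mt-Atp6, mt-Co1 and mt-Co2 were each between 1.06-fold and 1.13-fold above the next gene. In the second tables with copies mt-Co1, at 28020 TPM, stood just above mt-Co2, at 27991, in animal 1, and mt-Co2, at 30141, above mt-Co1, at 28513, in animal 2. The order of the 4 among themselves thus differed between the tables and, in the second tables, between the animals.

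mt-Cytb (chrM:14145-15288), the only mitochondrial gene for complex III, took the fifth place with 9090 and 9811 TPM (9451 ± 509, SD, n = 2). The step down to it from mt-Co3 was 1.74-fold in animal 1 and 1.71-fold in animal 2. The ATP synthase gene mt-Atp8 (chrM:7766-7969), which overlaps mt-Atp6, was at 5525 and 6486 TPM. That is far below the combined level of mt-Atp6, with which it is read from a common mRNA. The second tables gave mt-Atp8 no reads.

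The 7 complex I genes lay below mt-Cytb. mt-Nd1 (chrM:2751-3707) was at 7561 and 8198 TPM, mt-Nd4 (chrM:10167-11544) at 5569 and 5813, and mt-Nd4l (chrM:9877-10173) at a combined 5243 and 5684. mt-Nd4l and mt-Nd4, like mt-Atp8 and mt-Atp6, are read from a common mRNA, and their ranges overlapped. mt-Nd2 (chrM:3914-4951) was at 4765 and 5186 TPM, mt-Nd3 (chrM:9459-9806) at a combined 3707 and 4341, and mt-Nd5 (chrM:11742-13565), the largest of these membrane subunits, at 3603 and 3767. mt-Nd6 (chrM:13552-14070, minus strand) was the lowest coding gene at 975.7 and 1255 TPM. The step from mt-Nd5 down to it, 3.69-fold and 3.00-fold, was the widest between neighbours in the order.

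Of the 12 neighbouring pairs in this order, 9 did not overlap between the animals and 3 did: mt-Atp8 with mt-Nd4, mt-Nd4 with mt-Nd4l, and mt-Nd3 with mt-Nd5. The rank was the same in both animals for 11 of the 13 genes. The highest gene exceeded the lowest 21.8-fold in animal 1 and 17.8-fold in animal 2. Along the 12 coding genes of the plus strand, level and position had a Spearman correlation of -0.33, a description over genes of the same 2 libraries. Whether the counting used the strand is not given in the sources used here, and without it the reads of mt-Nd6 and of RNA from the opposite strand cannot be told apart.

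**Figure D2:**
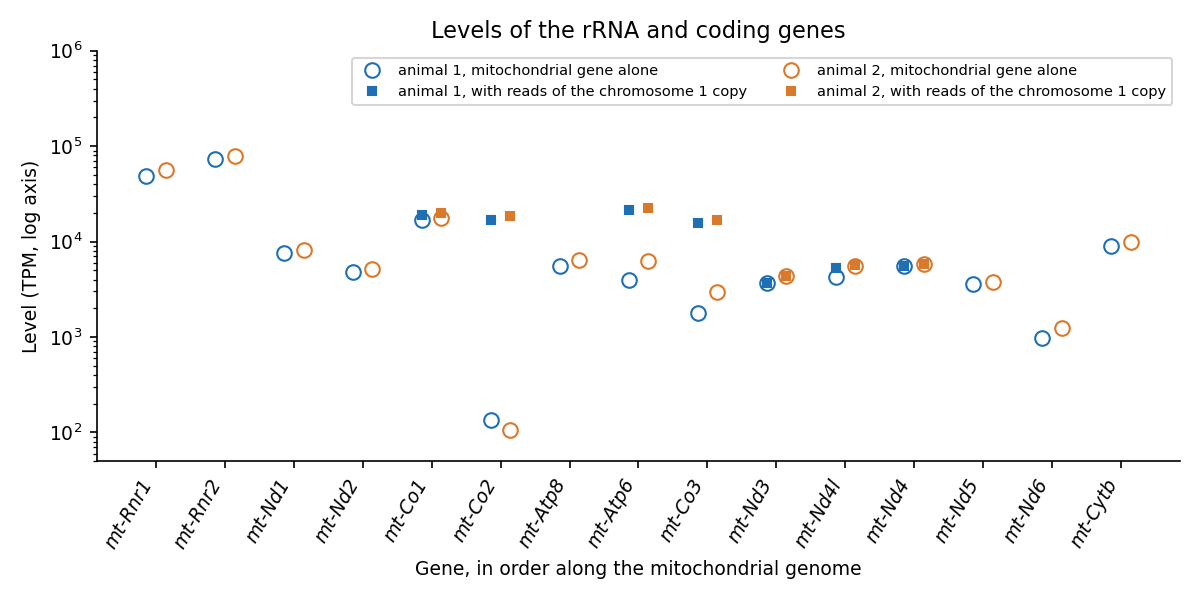
Level in TPM, on a log axis, of the rRNA and coding genes in order along the genome, for each animal, from the mitochondrial gene alone (open circles) and with the reads of the chromosome 1 copy added (squares, for the 7 genes that have one). mt-Co2 lies near 100 TPM alone, at 133.9 and 106.5, and at 17035 and 18572 with its copy.

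Length set a second limit, for the shortest coding genes. Among genes of 1 transcript with at least 100 reads in the gene tables, the second tables held a median of 0% of those reads for lengths of 250 to 350 bases in both animals. For 500 to 1000 bases the median was 74.2% and 75.0%, and for 1000 bases or more 106% and 105%. mt-Atp8 at 204 bases, mt-Nd4l at 297 and mt-Nd3 at 348 lie in the short range, and the second tables gave them 0, 70.76 and 3829 TPM in animal 1. Values of these 3 genes therefore rest on the gene tables, and their TPM depends on the usable length set there. That length was 105 bases for mt-Atp8, 198 for mt-Nd4l and 249 for mt-Nd3. In the second tables it was 47.1, 68.0 and 85.0 bases in animal 1. Set against mt-Cytb, which has no annotated chromosome 1 copy, the longer genes moved less between tables. mt-Co2 with its copy stood at 1.87 and 1.89 times mt-Cytb, and at 2.04 and 2.05 times in the second tables. mt-Nd1 stood at 0.832 and 0.836 times, and at 0.786 and 0.785 times. mt-Atp6 with its copy moved furthest of those named here, from 2.34 and 2.27 times to 1.86 and 1.85 times.

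The coding genes together made up 6.82% and 7.79% of the TPM of named genes (7.30% ± 0.683, SD, n = 2), and 12.1% and 12.9% with their copies (12.5% ± 0.600). All 37 genes took 19.2% and 21.4%, or 24.6% and 26.7% with the copies. How the coding transcripts divided between the complexes depended on the copies. From the mitochondrial genes alone, complex I held the largest share of coding TPM, 45.0% and 44.1%, and complex IV 27.6% and 26.6%. With the copies added, complex IV held 43.6% and 43.1%, complex I 26.3% and 26.8%, complex V 22.5% in both animals and complex III 7.62% and 7.67%. The second tables with copies also put complex IV first, at 50.9% and 51.2%.

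Each mitochondrial subunit works beside many subunits encoded in the nucleus, and 40 of these were listed for comparison. All 40 were above 1 TPM in both animals, with a median of 334 TPM. Among all 55536 named genes, 11889 in animal 1 and 11425 in animal 2 were at 1 TPM or more. The highest were Atp5b, the catalytic subunit of the ATP synthase, at 1554 ± 81.9 TPM (SD, n = 2), Atp5a1, its partner subunit, at 801 ± 35.2, and Cox8b, a muscle form of a complex IV subunit, at 773 ± 69.7. The medians of the mitochondrial genes, copies included, exceeded the nuclear medians 23.1-fold in both animals for complex I and 32.1-fold and 32.4-fold for complex IV. For complex V the medians differed 39.6-fold and 40.5-fold, and for complex III, with 1 mitochondrial gene, 45.2-fold and 42.0-fold. In the gene tables, within each of the 4 complexes, every mitochondrial gene, copies included, lay above the highest listed nuclear gene. In the second tables the ratios were lower in all 4 complexes: 13.3 and 12.6 for complex I, 31.8 and 29.2 for complex III, 31.3 and 29.0 for complex IV, and 17.6 and 18.2 for complex V. The medians for complexes I and V there include the short genes of which those tables hold few reads. In animal 1 these were mt-Nd3 at 3829 TPM and mt-Nd4l at 70.76 for complex I, and mt-Atp8 at 0 for complex V.

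**Figure D3:**
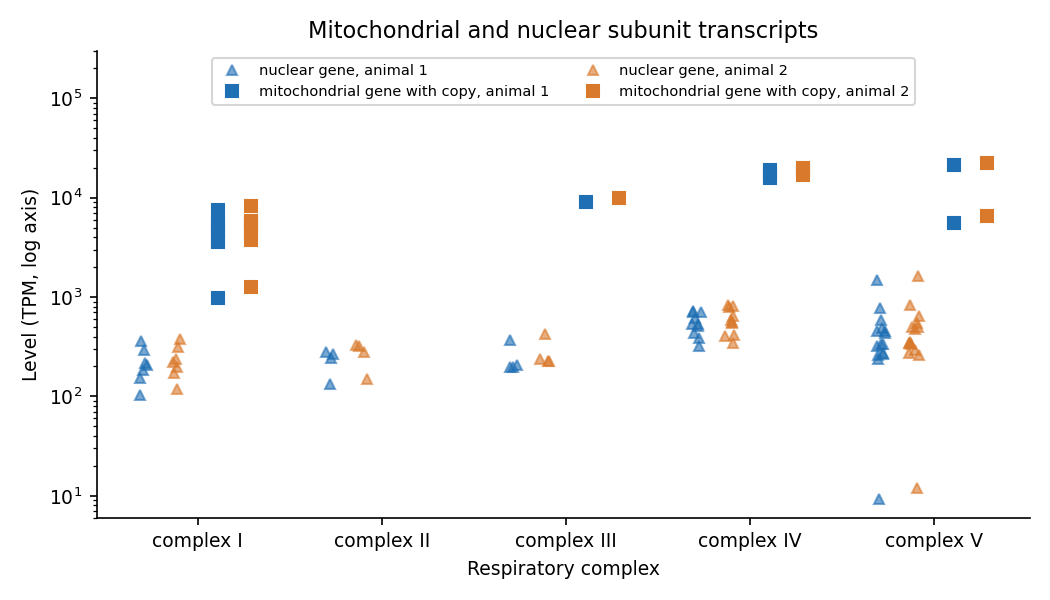
Level in TPM, on a log axis, of the listed nuclear subunits (triangles) and of the mitochondrial subunits with the reads of their copies (squares) in each respiratory complex and animal. The mitochondrial genes lie above all listed nuclear genes of their complex, and complex II, made of nuclear subunits alone, has no squares.

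The animals differed little in these genes, as in most others, and the ratios mostly lay the same way. Ratios are of expected counts, scaled between the libraries by TMM, a factor computed over all named genes, and written as log2 of animal 2 over animal 1. Of the 15 rRNA and coding genes, 0 differed 2-fold or more, which is near the 2.97% of the 10872 genes averaging at least 100 reads that did. Higher in animal 2 were 14 of the 15, against 54.8% of those 10872 genes. Abundant genes leaned the same way: among the 349 averaging at least 10000 reads, 79.9% were higher in animal 2 and 2.01% differed 2-fold or more. The median over those abundant genes was 0.12 and over all tested genes 0.02.

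The rRNA genes had ratios of 0.30 for mt-Rnr1 and 0.22 for mt-Rnr2. Over the 13 coding genes the median was 0.24, from -0.22 for mt-Co2 to 0.86 for mt-Co3. The genes at both ends of this range were ones with a chromosome 1 copy. For mt-Co3 the gene alone had 45666 and 81657 reads, and gene and copy together 406864 and 460189, which moved the ratio from 0.86 to 0.20. For mt-Atp6 it moved from 0.80 to 0.18, with 86097 and 147213 reads on the gene and 466583 and 519736 with the copy. For mt-Co2 it moved from -0.22 (95% counting interval -0.29 to -0.14) to 0.24, and so to the other side of 0. With the copies added all 13 coding genes lay above 0, from 0.16 to 0.48 around a median of 0.23.

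The top of that range was mt-Nd6, the minus-strand gene, at 0.48 (0.45 to 0.51), followed by mt-Atp8 and mt-Nd3, both at 0.34. mt-Nd6 had 15424 and 21106 reads, the fewest of any coding gene once the copies were added. The second tables gave mt-Nd6 a ratio of 0.31, still the highest of their 10 coding genes of 500 bases or more with copies added, all 10 of which were higher in animal 2. Of all genes in those tables, 50.3% were higher in animal 2 and 3.05% differed 2-fold or more. There mt-Nd3 was at -0.98 and mt-Nd4l at -0.30, from 10148 and 5105 reads and from 150 and 121 reads, in the range of lengths where those tables lose most reads. Scaling by the spike-ins raised every ratio by a common amount, so that the coding median was 0.43 and the median of all genes 0.22. On that scale 80.6% of genes were higher in animal 2 and 2.85% differed 2-fold or more. Without the copies, mt-Co3 was the only one of the 15 past 2-fold, at 1.06, and mt-Atp6 stood at the line, at 1.00. With their copies added these ratios were 0.40 for mt-Co3 and 0.38 for mt-Atp6.

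**Figure D4:**
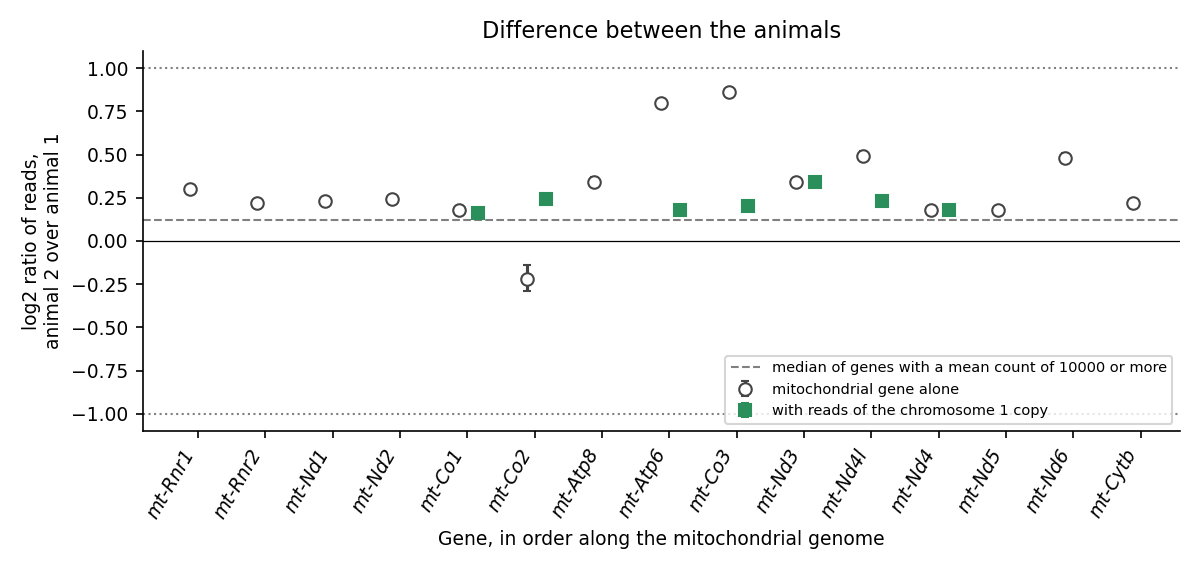
The log2 ratio of reads, animal 2 over animal 1, for the rRNA and coding genes in genome order, from the mitochondrial gene alone (open circles) and with the reads of the chromosome 1 copy (squares). Bars are 95% intervals for counting error, mostly smaller than the symbols; the dashed line is the median of genes averaging at least 10000 reads (0.12) and the dotted lines mark a 2-fold difference. mt-Co2, mt-Atp6 and mt-Co3, at -0.22, 0.80 and 0.86 alone, lie between 0.18 and 0.24 with their copies.

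The nuclear subunits had ratios from 0.03 to 0.45 with a median of 0.25, beside 0.23 for the mitochondrial coding genes with copies. All 40 were higher in animal 2, against 54.8% of all tested genes and 79.9% of the abundant ones. None of them differed 2-fold, which is near the 2.97% of all tested genes that did. The ratios furthest from 0 were those of Atp5g2 at 0.45, Atp5k at 0.44, both ATP synthase subunits, and Sdhb of complex II at 0.38. Atp5g2 had only 222 and 299 reads, and its mean was 10.6 TPM in the gene tables but 319 TPM in the second tables. The 39 listed genes for copying the mitochondrial genome and for making and processing its RNA were far lower, with a median of 8.00 TPM. Of these 39, 35 were above 1 TPM in both animals, beside 11889 and 11425 of the 55536 named genes at 1 TPM or more. The highest were Fastk at 77.5 ± 0.827 TPM (SD, n = 2), whose mitochondrial form is known for keeping the mt-Nd6 RNA, Slirp at 63.8 ± 1.05, which holds mitochondrial mRNAs together with Lrpprc, and Grsf1 at 58.7 ± 1.61, a protein of mitochondrial RNA granules. Of the 35 averaging at least 100 reads, 28 were higher in animal 2, against 54.8% of all tested genes, with a median of 0.13, and 0 differed 2-fold, again near the 2.97% of all tested genes. The furthest were Fastkd5, which acts on mRNA ends without a tRNA, at 0.50, Ptcd3, a mitochondrial ribosomal protein, at 0.39, and Twnk, the helicase that opens mitochondrial DNA, at -0.38.

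Markers of slow fibres, adipocytes and Schwann cells differed more between the animals than these genes did, and those of endothelial and erythroid cells did not pass 2-fold. The 6 slow fibre markers summed to 484.4 TPM in animal 1 and 2666 TPM in animal 2. Their median log2 ratio was 2.60, and all 6 were 2-fold or more higher in animal 2, against 0.791% of all genes tested. The 6 adipocyte markers summed to 568.3 and 34.04 TPM, with Ucp1 at 0 and 0.0200, and the 5 Schwann cell markers to 243.8 and 32.90 TPM. The 4 endothelial markers summed to 54.62 and 44.66 TPM, with a median log2 ratio of -0.18, and the 5 erythroid markers to 237.2 and 304.9 TPM, with a median of 0.43 over the 4 that averaged at least 100 reads. The 6 markers common to muscle fibres, most of them of fast fibres, had a median ratio of 0.04. The part of these differences in the higher mitochondrial ratios of animal 2 was not tested, and with 1 library on each side they cannot be told apart.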

How the data were processed

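Members were found by symbol in the transcript tables and matched by gene identifier to the gene tables (37 of 37). The authors quantified expected counts (estimated counts in the second tables) and TPM against mm10 with GENCODE M21, per the notes deposited beside the files. Column layouts are those of RSEM for the gene tables, which carry posterior standard deviations, and of kallisto for the second. Which tools and versions made them is not given in the sources used here. Expected counts were rounded to whole numbers. Log2 ratios used a prior count of 0.5 and edgeR 4.0.16 TMM factors in R 4.3.3 over genes averaging at least 1 read; DESeq2 1.42.0 size factors, library size and the spike-ins were alternatives. Exact binomial 95% intervals cover counting error only, and reads without molecular identifiers are not independent molecules. The ratio step was tested on simulated data with 55536 genes and a spread set in advance (dispersion 0.04), not estimated from these libraries. Among genes averaging at least 100 reads, 99% of log2 changes of 2 came out past 2-fold, as did 1.81% of unchanged genes. Both shares rest on that setting. Copies were transcripts outside the mitochondrial genome with 95% identity over 100 bases or more (blastn 2.17.0, GENCODE M21 transcripts, from which all printed sequences come), and those with 1000 reads in both libraries were to be named; copies below that are named where the sequence is discussed. The combined level adds the reads of a chromosome 1 copy. All rRNA and coding genes are given; from each list of other genes the 3 highest and the 3 furthest apart among those averaging at least 100 reads are named. The level of 1 TPM and the 2-fold line are conventions. The genes and lists were chosen with earlier results of these data known. Shares are of the TPM of named genes, without spike-ins. Expected counts of named genes were 45014831 and 47771308.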

Additional observations from a re-analysis of the deposited data

How the results depend on the processing

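Without misc_RNA genes in the denominator the coding genes held 10.5% and the rRNA genes 18.7% of TPM, and the second tables gave 11.2% and 19.6%. For the coding genes the share was 12.5% with chromosome 1 copies, 16.1% with copies in the second tables, and 5.65% of expected counts. Leaving out either library gave 6.82% to 7.79% for the coding genes, 12.4% to 13.6% for the rRNA genes and 0 reads for the tRNA genes. The coding median log2 ratio was 0.22 with DESeq2 factors, 0.13 with library size alone, 0.43 with the spike-ins, and 0.18 in the second tables with or without copies; a prior count of 5 or no filter on low counts left it at 0.24. The count past 2-fold was 1 with the spike-ins (mt-Co3, without the reads of its copy) and 0 under the other settings run. Levels of all 15 genes in the second tables, and of 4 of the 7 with copies added, moved by more than the SD. The copies added in the second tables were chosen after seeing the data. No ratio can be computed without 1 of the 2 libraries. No paired analysis was possible because there is 1 group. The cause of these shifts was not tested. Beside depth, the placement of reads between identical sequences and the length of the shortest genes limit these values.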
